A study of Mus musculus with 6 samples.

Results

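The Fc receptor genes analysed here were the 7 rows of the read count table with the symbols *Fcgr1*, *Fcgr2b*, *Fcgr3*, *Fcgr4*, *Fcer1g*, *Fcgrt*, and *Trim21*, of 48440 rows in all. They were chosen by symbol, as receptors that bind the constant part of antibodies on the cell surface, in endosomes, or in the cytosol. *Fcer1g* encodes a chain through which some of them signal. Earlier results of these data were known when these genes and the gene lists below were chosen. The counts called, set beside the share of all genes, are therefore descriptions. All 7 passed the filter on low counts, as did 18593 genes in total. The libraries came from DRGs (dorsal root ganglia, which hold the cell bodies of sensory neurons) of WT male mice. The controls were 3 libraries (AAV5-*Gfp* replicates 1 to 3), made from L3/4 DRGs microinjected on 1 side with AAV5, an adeno-associated virus, carrying green fluorescent protein. The other 3 (AAV5-*V1+V2* replicates 1 to 3) were made from DRGs microinjected with AAV5-*V1* and AAV5-*V2* together, which carry the transcript variants of *NIS-lncRNA*, a long noncoding RNA upregulated in DRGs after nerve injury. Both groups therefore received virus and the injection itself, and the virus preparation and the transcripts it carried cannot be told apart. The text deposited with the data gives tissue collection at 5 weeks and expression profiling at 4 weeks after microinjection. The sources used here do not say whether each library came from 1 animal or from pooled animals. The p-values therefore set the difference between groups against the spread between libraries, which may not be the spread between animals. Age is not given in the labels used here.

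Fc receptors link antibodies to the cells that respond to them. The activating receptors for IgG, encoded by *Fcgr1*, *Fcgr3*, and *Fcgr4*, signal through the ITAM (immunoreceptor tyrosine-based activation motif) of the shared γ chain, encoded by *Fcer1g*, and the kinase Syk. The inhibitory receptor, encoded by *Fcgr2b*, carries an ITIM (the matching inhibitory motif), recruits the phosphatase SHIP1, and is the IgG receptor of B cells. Macrophages carry most of these receptors, and in the DRG macrophages lie around the neurons and respond to nerve injury. *Fcgrt* encodes the heavy chain of the neonatal receptor FcRn, which pairs with β2-microglobulin in endosomes and returns IgG to the cell surface. *Trim21* encodes a cytosolic ubiquitin ligase that binds antibody carried into the cell on viruses, and it is an interferon-responsive gene.

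Each control library held between 32618252 and 34764282 counts, and each AAV5-*V1+V2* library between 32025612 and 34228594. Values below are raw counts, CPM (counts scaled to a common library size after TMM normalization), or log2 fold changes of AAV5-*V1+V2* over AAV5-*Gfp* with their SE. Where 3 values of a group are given, they are those of replicates 1, 2, and 3. Genes were called by edgeR's quasi-likelihood test where the p adjusted by Benjamini-Hochberg over all genes tested was under 0.05. AAV5-*V1+V2* replicate 1 stood apart. It had the highest level of all 7 Fc receptor genes and of the summed macrophage markers, and the lowest sum of 14 neuron markers (5219 CPM, with 7318 and 7617 CPM in replicates 2 and 3 and between 8249 and 8756 CPM with AAV5-*Gfp*).

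Stretches of 3 promoters and 1 coding run are shown, the promoters because they hold the motifs searched and the run because reads within it could have come from either of a pair of the receptors. RefSeq promoter windows (GRCm38.p6, 300 bases, 250 of them before the transcription start site) matched all 7 genes, with 8 windows in all. They were searched on both strands for the gamma-activated site TTCNNNGAA, the interferon-stimulated response element GAAANNGAAA, and the PU.1 site GAGGAAGT, which 8.3%, 3.44%, and 3.2% of 32851 promoter windows held. The *Fcgr1* window held the gamma-activated site at positions -109 to -101 from the start site. The *Fcgr4* window held an interferon-stimulated response element at positions -73 to -64 and, on the opposite strand, a PU.1 site at positions -24 to -17. The *Trim21* window held a pair of overlapping interferon-stimulated response elements, between bases 13 and 28 after the start site. No match to these letters lay in the windows of *Fcgr2b*, *Fcgr3*, *Fcer1g*, or *Fcgrt*. Each stretch is printed 5′ to 3′ on the strand of its gene, with the matches in capitals.
*Fcgr1*, chr3:96294045-96294104, minus strand: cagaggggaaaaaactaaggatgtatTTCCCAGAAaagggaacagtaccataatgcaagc
*Fcgr4*, chr1:171018836-171018925, plus strand: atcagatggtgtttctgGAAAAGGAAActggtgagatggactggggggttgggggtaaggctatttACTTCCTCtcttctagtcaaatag
*Trim21*, chr7:102565453-102565512, minus strand: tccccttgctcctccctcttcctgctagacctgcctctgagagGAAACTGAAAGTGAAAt

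*Fcgr2b* and *Fcgr3* lie on the same strand of chromosome 1 and are near-identical over part of their coding sequence, so that some reads cannot be assigned to 1 of them. In GENCODE M21 (GRCm38), 166 of the 50-base words in the exons of *Fcgr2b* (2.92%) were also found in *Fcgr3*, where they made up 9.58%. The longest identical coding run of their longest coding transcripts is 129 bases and crosses from exon 3 to exon 4 in both. It lies at chr1:170967980-170968081 and chr1:170966674-170966700 in *Fcgr2b*, and at chr1:171057691-171057792 and chr1:171054167-171054193 in *Fcgr3*. The run is given 5′ to 3′ in the direction of transcription, in lower case throughout because no base differs.
Run shared by *Fcgr2b* and *Fcgr3*: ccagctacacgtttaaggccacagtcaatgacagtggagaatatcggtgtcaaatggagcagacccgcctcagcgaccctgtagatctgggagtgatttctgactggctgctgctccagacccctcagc

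Of the 7 Fc receptor genes, 6 were higher in AAV5-*V1+V2* DRGs and none was lower, whereas 10.1% of all genes tested were called higher. The median log2 fold change of the 7 genes was 1.61, beside a median of all genes near 0. For each of the 7, the lowest AAV5-*V1+V2* library was above the highest AAV5-*Gfp* library in CPM, as was so for 23.4% of all genes tested. *Fcgrt* was the gene that did not pass the test. In these bulk libraries, more cells of a type and more RNA per cell cannot be told apart.

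*Fcer1g*, the signalling chain that the activating receptors share, lies on chromosome 1 (GRCm38 chr1:171229572-171234365, minus strand). It had 126, 126, and 99 counts with AAV5-*Gfp*, against 843, 411, and 297 counts with AAV5-*V1+V2*. The lowest AAV5-*V1+V2* library was 2.22 times the highest AAV5-*Gfp* library in CPM. Its mean level was 3.57 ± 0.370 CPM with AAV5-*Gfp* and 15.5 ± 8.92 CPM with AAV5-*V1+V2* (SD, n = 3 each), a log2 fold change of 2.12 (SE 0.39, edgeR's quasi-likelihood test, adjusted p = 0.0191). This was the smallest adjusted p of the 7.

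*Fcgr4* (chr1:171018920-171029761, plus strand) encodes an activating receptor of myeloid cells that binds IgG2 subclasses. It was the receptor with the fewest reads, at 10, 11, and 13 counts with AAV5-*Gfp* and 106, 46, and 30 counts with AAV5-*V1+V2*. The groups did not overlap, and replicate 1 was 3.68 times replicate 3 within AAV5-*V1+V2* in CPM. The log2 fold change was 2.38 (SE 0.52, edgeR, adjusted p = 0.0289), the largest of the 7 genes by its point estimate, and the value of *Fcer1g* lies within 1 SE of it.

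*Fcgr3* (chr1:171051174-171064935, minus strand), the low-affinity activating receptor, had 231, 245, and 183 counts with AAV5-*Gfp* and 1079, 560, and 409 counts with AAV5-*V1+V2*. The mean rose from 6.70 ± 0.723 to 20.5 ± 10.9 CPM (SD, n = 3 each), a log2 fold change of 1.61 (SE 0.35, edgeR, adjusted p = 0.0279). *Fcgr1* (chr3:96282909-96293969, minus strand), the high-affinity receptor, had 99, 75, and 77 counts with AAV5-*Gfp* and 234, 182, and 137 counts with AAV5-*V1+V2*. It rose less by its point estimate than the other surface receptors, by 1.11 on the log2 scale (SE 0.24, edgeR, adjusted p = 0.0287), from 2.57 ± 0.460 to 5.52 ± 1.56 CPM (SD, n = 3 each). Its groups did not overlap.

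*Fcgr2b* (chr1:170958617-170976547, minus strand), the inhibitory receptor, had 181, 225, and 156 counts with AAV5-*Gfp* and 1121, 514, and 410 counts with AAV5-*V1+V2*. Replicate 1 of AAV5-*V1+V2* was 2.85 times replicate 3 in CPM, and all 3 were above every AAV5-*Gfp* library. The log2 fold change was 1.84 (SE 0.38, edgeR, adjusted p = 0.0248). With the reads of *Fcgr2b* and *Fcgr3* summed into 1 gene, a choice made after the data were seen, the log2 fold change was 1.72 (SE 0.36, edgeR, adjusted p = 0.0256). An antisense gene, Gm38204, shares 155 exonic bases with *Fcgr2b*. The library kit kept the strand, but the sources used here do not say whether the counting used it.

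*Fcgrt* (chr7:45092990-45103851, minus strand), the neonatal receptor, was the most abundant of the 7 with AAV5-*Gfp*. It had 1111, 1028, and 735 counts with AAV5-*Gfp* and 1277, 1245, and 1198 counts with AAV5-*V1+V2*. The groups came close, since the lowest AAV5-*V1+V2* library was 1.01 times the highest AAV5-*Gfp* library in CPM. The mean level was 29.2 ± 5.45 CPM with AAV5-*Gfp* and 37.0 ± 1.97 CPM with AAV5-*V1+V2* (SD, n = 3 each), and the log2 fold change of 0.34 did not pass the test (SE 0.13, edgeR, adjusted p = 0.118).

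*Trim21* (chr7:102557921-102565486, minus strand), the cytosolic antibody receptor, had 248, 242, and 240 counts with AAV5-*Gfp* and 470, 382, and 340 counts with AAV5-*V1+V2*. The AAV5-*Gfp* libraries lay close together, at 7.45 ± 0.406 CPM, and the AAV5-*V1+V2* libraries at 11.9 ± 2.22 CPM were all above them (SD, n = 3 each). The log2 fold change was 0.67 (SE 0.15, edgeR, adjusted p = 0.0288).

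**Figure D1:**
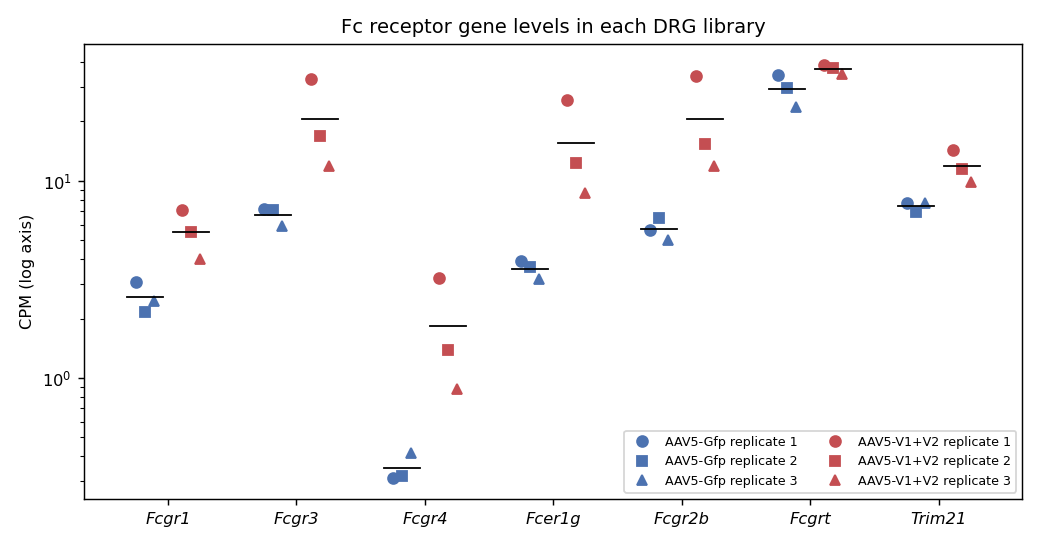
Levels in CPM (log axis) of the 7 Fc receptor genes in each library, with AAV5-*Gfp* in blue, AAV5-*V1+V2* in red, a marker shape for each replicate number, and a black line at each group mean (n = 3). No gene's groups overlap, AAV5-*V1+V2* replicate 1 is the highest library for all 7, and the groups of *Fcgrt* lie closest.

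**Figure D2:**
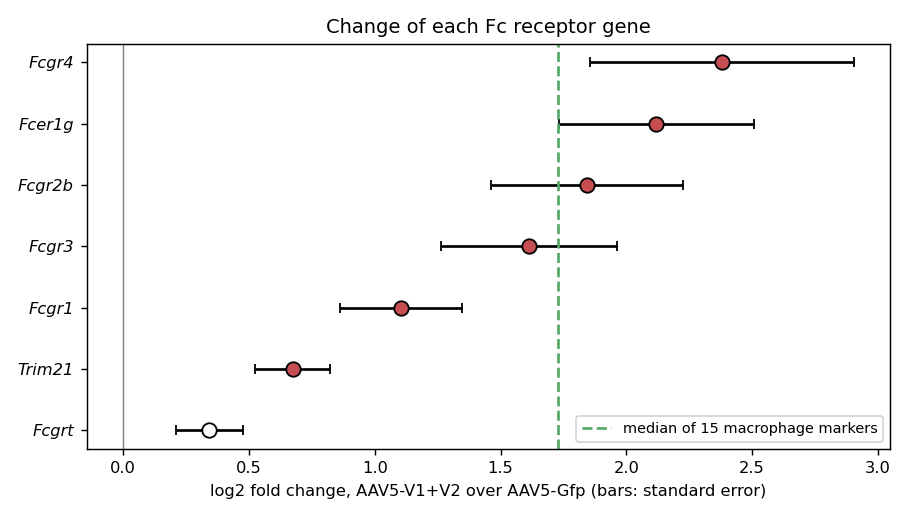
Log2 fold change of AAV5-*V1+V2* over AAV5-*Gfp* for each gene, with bars of 1 SE and filled points for genes called by edgeR's quasi-likelihood test. The points run from 0.34 for *Fcgrt*, which is open, to 2.38 for *Fcgr4*, and the dashed line marks the median of 15 macrophage markers, 1.73.

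These calls changed when a control library was left out. Without any 1 of the 3 AAV5-*Gfp* libraries, 0 of the 7 genes were called by edgeR, while 7, 6, and 6 of them had an unadjusted p under 0.05 without replicates 1, 2, and 3, and all genes called higher fell from 1872 to 257, 12, and 15. When AAV5-*V1+V2* replicate 1 was left out, 6 genes were called, and *Fcer1g* and *Fcgr2b* had log2 fold changes of 1.56 and 1.27. Without AAV5-*V1+V2* replicate 2, only *Fcer1g* and *Fcgr2b* were called, and all genes called higher fell to 1020 (5.40% of those tested). Without AAV5-*V1+V2* replicate 1, all genes called higher numbered 1862.

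Levels of different genes were set side by side per kilobase of exon. With AAV5-*Gfp*, *Fcgrt* led at 13.9 ± 2.59 CPM per kilobase, followed by *Fcer1g* at 4.09 ± 0.423 and *Fcgr3* at 3.86 ± 0.416 CPM per kilobase, whose ranges overlapped (SD, n = 3). *Trim21* (2.01), *Fcgr1* (0.991), *Fcgr2b* (0.984), and *Fcgr4* (0.277 CPM per kilobase) came below, with overlapping ranges for *Fcgr1* and *Fcgr2b*. With AAV5-*V1+V2*, *Fcer1g* at 17.8 ± 10.2 and *Fcgrt* at 17.6 ± 0.936 CPM per kilobase were not separated, nor was *Fcgr3* at 11.8 ± 6.29 from *Fcgrt*. *Fcgr2b* (3.54), *Trim21* (3.20), *Fcgr1* (2.13), and *Fcgr4* (1.45 CPM per kilobase) followed, each overlapping the next. In the controls, the overlap of *Fcgr2b* with *Fcgr1* depends on the length used. The length of 1 coding transcript per gene (the longest for *Fcgr2b*) was also used in place of all exons. In the controls, *Fcgr2b* then had 1.61 CPM per kilobase, between *Fcgr1* (0.991) and *Trim21* (2.67), without overlap. In the AAV5-*V1+V2* libraries it had 5.78 CPM per kilobase, beside 4.26 for *Trim21*, with overlapping ranges.

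Of the 4 Fc gamma receptor genes, *Fcgr3* made up most of the summed CPM per kilobase in every library, between 61.1% and 64.8%. *Fcgr2b* held 16.1% ± 1.56 in the controls and 18.4% ± 1.22 in the AAV5-*V1+V2* libraries, and *Fcgr1* held 16.2% ± 2.58 and 12.2% ± 2.63 (SD, n = 3 each). Both pairs of groups overlapped. *Fcgr4* held 3.78%, 4.02%, and 6.002% in the controls and 8.53%, 7.07%, and 6.23% with AAV5-*V1+V2*, without overlap. In a comparison added after the data were seen, the exact p was 0.1 for *Fcgr4*, the smallest possible, and between 0.2 and 0.5 for the others (2-sided exact permutation test; 0.4 for *Fcgr4* adjusted over 4 shares). The shares rest on the length of all exons. Coding transcript lengths are shorter for *Fcgr2b* and *Fcgr3* and equal for *Fcgr1* and *Fcgr4*, and shares were not computed with them. Reads from the sequence that *Fcgr2b* and *Fcgr3* have in common also limit their shares.

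**Figure D3:**
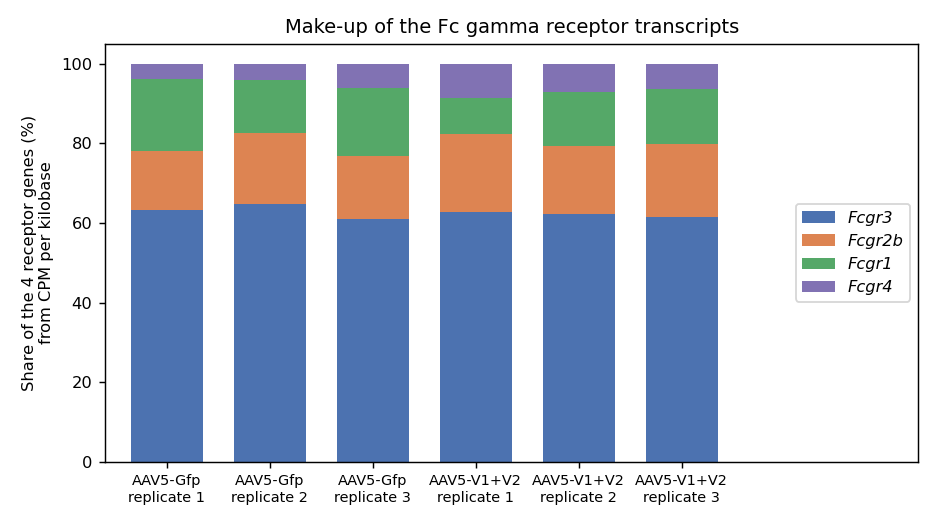
Share (%) of each of the 4 Fc gamma receptor genes in their summed CPM per kilobase of exon, with 1 stacked bar for each library. *Fcgr3* takes between 61.1% and 64.8% of every bar, and *Fcgr4* at the top is the thinnest band, between 3.78% and 8.53%.

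The activating genes were next compared with the inhibitory one, as the log2 ratio of each to *Fcgr2b* within each library. The 3 against 3 libraries allow no exact p below 0.1. The ratio of *Fcer1g* to *Fcgr2b* was -0.52, -0.83, and -0.65 in the controls, against -0.41, -0.32, and -0.46 with AAV5-*V1+V2*. The groups did not overlap, and the difference of 0.26 reached that smallest p (2-sided exact permutation test, p = 0.1; 0.267 adjusted over 4 ratios). The ratio of *Fcgr1* differed by -0.63, with overlap (exact p = 0.2, adjusted 0.267). *Fcgr3* differed by -0.21 (exact p = 0.2, adjusted 0.267) and *Fcgr4* by 0.32 (exact p = 0.3, adjusted 0.3), both with overlap. Since no exact p below 0.1 was possible, these tests cannot decide whether any of the ratios differs between the groups.

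Markers of macrophages rose beside the receptors. Of 15 markers, 13 were called higher and none lower, with a median log2 fold change of 1.73, whereas 10.1% of all genes tested were called higher. Their summed level was between 234 and 328 CPM with AAV5-*Gfp* and between 733 and 1950 CPM with AAV5-*V1+V2*. *C1qa* and *C1qb*, which encode complement C1q chains, rose by 1.93 (SE 0.26) and 1.70 (SE 0.23) on the log2 scale. *Cx3cr1* and *Cd163* did not pass the test, and *Cd163* had a log2 fold change of 0.05 (SE 0.14). Without AAV5-*Gfp* replicates 1, 2, and 3 in turn, 6, 0, and 0 of the markers were called. *Ptprc* (2.83, SE 0.39) and *Laptm5* (2.22, SE 0.34) on this list are found in leukocytes of many kinds. To set the receptors against this reference, the mean log2 CPM of the 15 markers was taken from each gene's log2 CPM in the same library.

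Against the macrophage markers, *Fcgr2b* and *Fcgr3* moved by 0.08 and -0.13 between the groups, less than the SD of the AAV5-*V1+V2* libraries (0.32 and 0.25), and *Fcgr4* moved by 0.41, with overlap. *Fcer1g* was at -1.76, -1.72, and -1.57 in the controls and at -0.98, -1.48, and -1.55 in the AAV5-*V1+V2* libraries, a difference of 0.35 without overlap. Relative to the markers, *Fcgr1* differed by -0.54, *Trim21* by -0.95, and *Fcgrt* by -1.25, each without overlap. Those 4 differences each had the smallest p possible here (2-sided exact permutation test, p = 0.1; 0.175 adjusted over 7 genes), which is above 0.05, and the exact p values of *Fcgr2b*, *Fcgr3*, and *Fcgr4* were 0.8, 0.5, and 0.4.

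**Figure D4:**
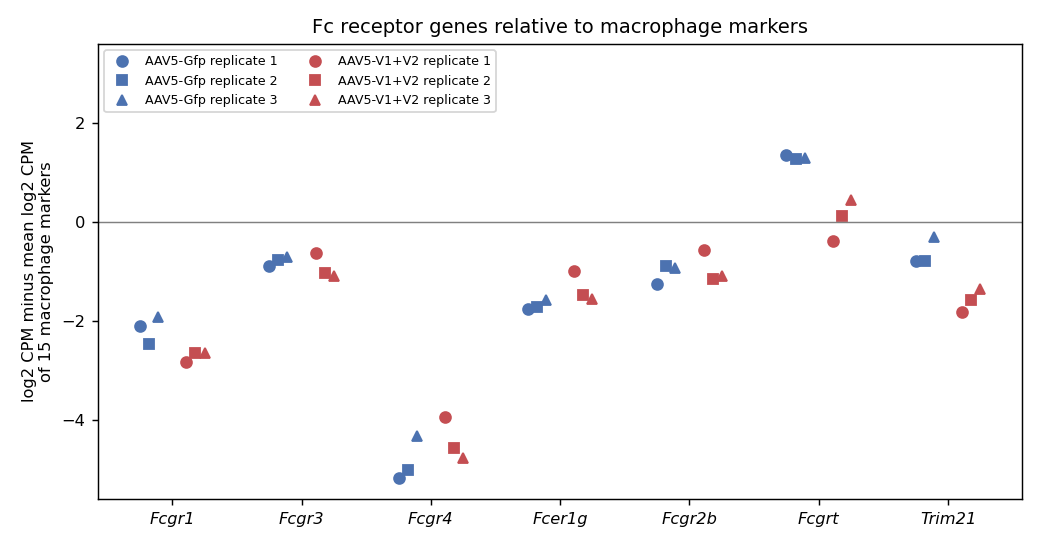
Log2 CPM of each Fc receptor gene minus the mean log2 CPM of 15 macrophage markers in the same library, with colours and marker shapes for group and replicate number. *Fcgr2b*, *Fcgr3*, and *Fcgr4* overlap between groups, *Fcer1g* lies higher with AAV5-*V1+V2* by 0.35, and *Fcgr1*, *Trim21*, and *Fcgrt* differ by -0.54, -0.95, and -1.25.

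Other cells that carry these receptors were followed by their markers. Among B and plasma cell markers, 11 of 12 were called higher (median log2 fold change 3.11), with sums between 67.7 and 80.6 CPM in AAV5-*Gfp* and between 198 and 356 CPM in AAV5-*V1+V2*. For T and natural killer cells it was 12 of 14 (median 2.60; 4.62 to 11.8 and 38.5 to 86.4 CPM), and for monocytes 3 of 6 (median 1.58; 33.3 to 34.5 and 57.1 to 127 CPM). Neutrophil markers, 2 of 12 of which were called, had a median of 0.81, with sums between 147 and 168 CPM and between 206 and 421 CPM. None of 10 mast cell and basophil markers was called (median -0.10; 97.6 to 109 and 84.7 to 98.3 CPM). Among the resident cells, 2 of 14 neuron markers were called lower (median -0.37), none of 10 Schwann cell markers was called, and 1 rose and 1 fell among 10 markers each of satellite glia and of endothelium. Of all genes tested, 10.1% were called higher and 5.27% lower. The neuron count was 0 without any 1 AAV5-*Gfp* library, and 6, 1, and 5 without AAV5-*V1+V2* replicates 1, 2, and 3. Leaving out AAV5-*Gfp* replicates 1, 2, and 3 in turn left 10, 0, and 0 calls among the B and plasma cell markers and 9, 0, and 0 among those of T and natural killer cells, and none among those of monocytes, neutrophils, satellite glia, and endothelium. The neutrophil count was 5, 0, and 5 without AAV5-*V1+V2* replicates 1, 2, and 3, and the monocyte count was 5 without replicate 3. The part of these cells in the change of the receptor genes was not tested.

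Antibody transcripts had larger log2 fold changes, by point estimate, than the Fc receptor genes analysed here. Of 10 antibody constant region and joining chain genes tested, 9 were called higher, with a median log2 fold change of 5.41, beside 10.1% of all genes. The sum of the list was between 21.3 and 50.5 CPM with AAV5-*Gfp* and between 1339 and 1998 CPM with AAV5-*V1+V2*. The list is not limited to IgG. The summed IgG heavy chain genes alone had 2.40 to 20.2 CPM with AAV5-*Gfp* and 888 to 1315 CPM with AAV5-*V1+V2*. *Ighg2c*, the IgG2c heavy chain, which the activating receptors bind, had 91, 42, and 53 counts with AAV5-*Gfp* and 24620, 19225, and 16558 counts with AAV5-*V1+V2* (log2 fold change 8.31, SE 0.33, edgeR, adjusted p = 3.03e-04). *Ighg2b* rose by 8.08 (SE 0.46, edgeR, adjusted p = 0.00118) and *Igha*, the IgA heavy chain, by 6.88 (SE 0.29, edgeR, adjusted p = 3.03e-04) on the log2 scale. *Ighg3* had 1, 2, and 2 counts with AAV5-*Gfp* and 560, 501, and 905 counts with AAV5-*V1+V2*, and too few control counts to give a fold. *Ighg1* did not pass the test (log2 fold change 3.37, SE 1.03, edgeR, adjusted p = 0.0648). AAV5-*Gfp* replicate 1 held 499 of its counts, against 14 and 35 in replicates 2 and 3, and without that library all 10 genes of the list were called. Without AAV5-*Gfp* replicate 2 or 3, 5 of the 10 were called. These constant regions are alike in sequence, so reads could have been split between them. *Ighe*, the ligand of the high-affinity IgE receptor, had no count with AAV5-*Gfp* and 6, 4, and 3 with AAV5-*V1+V2*, and was not tested.

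Other Fc receptor and Fc receptor-like genes, outside the 7, were mostly those of B cells. Of 9 tested, 5 were called higher, beside 10.1% of all genes, and 1, 0, and 0 were without AAV5-*Gfp* replicates 1, 2, and 3. *Fcrl1* rose by 3.63 (SE 0.52), *Fcmr*, the IgM receptor, by 3.47 (SE 0.51), *Fcrl5* by 3.07 (SE 0.56), *Fcrla* by 2.78 (SE 0.48), and *Fcer2a*, the low-affinity IgE receptor CD23, by 2.36 (SE 0.34) on the log2 scale. *Fcrls*, which had the highest mean level of the 9, had a log2 fold change of 0.02 (SE 0.26) and did not pass the test. The chains that join *Fcer1g* in the IgE receptor of mast cells, *Fcer1a* and *Ms4a2*, chosen after their values were seen, had log2 fold changes of 0.22 (SE 0.34) and -0.63 (SE 0.40) and did not pass the test. Among 5 genes of receptors that use the γ chain, 2 were called, and 1, 0, and 0 without those control libraries in turn, or 1 without AAV5-*V1+V2* replicate 1 or 2. *Clec4e*, which encodes the receptor Mincle, had 12, 11, and 17 counts with AAV5-*Gfp* and 1257, 428, and 228 with AAV5-*V1+V2* (log2 fold change 5.54, SE 0.77, edgeR, adjusted p = 0.0144). The natural killer cell receptor gene *Ncr1* rose by 1.76 (SE 0.41).

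Downstream of the activating receptors, 16 of 21 genes of the ITAM pathway were called higher and none lower, with a median log2 fold change of 1.81. The share of all genes tested that were called higher was 10.1%. The adaptor gene *Blnk* rose by 2.46 (SE 0.32), the exchange factor gene *Vav1* by 2.25 (SE 0.34), the GTPase gene *Rac2* by 2.24 (SE 0.33), and the phospholipase gene *Plcg2* by 1.81 (SE 0.28). *Syk*, the kinase that docks on the γ chain, chosen after its values were seen, had 550, 506, and 530 counts with AAV5-*Gfp* and 4671, 2080, and 1647 with AAV5-*V1+V2* (log2 fold change 2.38, SE 0.39, edgeR, adjusted p = 0.0159). *Prkcd*, *Fyn*, *Vav3*, *Grb2*, and *Card9* did not pass the test. Several genes of this list, *Blnk* among them, also serve the B cell receptor. On the inhibitory side, 10 of 13 genes were called higher, with a median of 1.42. *Inpp5d*, which encodes SHIP1, the phosphatase that *Fcgr2b* recruits, rose by 1.72 (SE 0.26), *Ptpn6*, which encodes SHP-1, by 2.35 (SE 0.35), and the B cell gene *Cd22* by 3.77 (SE 0.47). *Ptpn11*, *Inppl1*, and *Cblb* did not pass. Without AAV5-*Gfp* replicate 1, 2, or 3, edgeR called 1, 0, and 0 genes of the ITAM list and 1, 0, and 0 of the ITIM list. The ITIM count was 6 without AAV5-*V1+V2* replicate 2, where 5.40% of all genes tested were called higher.

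**Figure D5:**
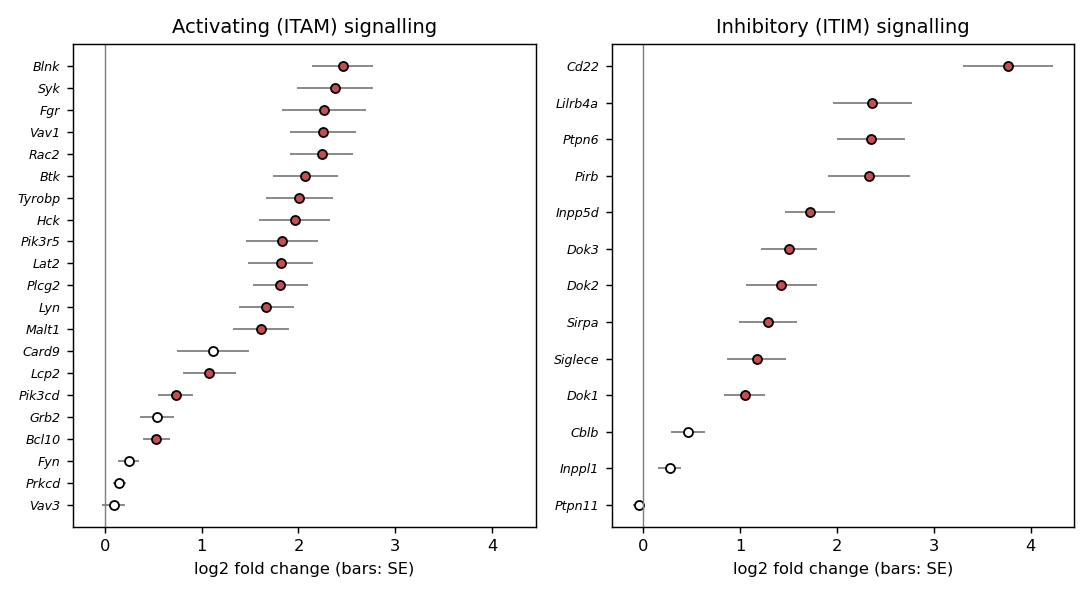
Log2 fold change of AAV5-*V1+V2* over AAV5-*Gfp* for 21 genes of activating and 13 genes of inhibitory signalling, with bars of 1 SE and filled points for genes called by edgeR. Filled points number 16 on the left and 10 on the right, and *Cd22* lies farthest to the right at 3.77.

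Of the genes that serve phagocytosis, 9 of 16 were called higher, beside 10.1% of all genes tested, with a median log2 fold change of 1.45. *Ctss*, which encodes the protease cathepsin S, rose by 3.17 (SE 0.50), *Cybb*, the core of the phagocyte oxidase, by 2.87 (SE 0.47), and *Itgb2*, the β2 integrin, by 2.49 (SE 0.41) on the log2 scale. The lysosomal protease gene *Ctsb* had a log2 fold change of -0.06 (SE 0.08) and *Ctsd* of 0.11 (SE 0.09), and neither passed. Without any 1 AAV5-*Gfp* library, none of the 16 was called.

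*B2m*, whose protein pairs with FcRn and with class I MHC molecules, had 3974, 2743, and 2981 counts with AAV5-*Gfp* and 17375, 12145, and 10146 with AAV5-*V1+V2*. Its log2 fold change was 1.997 (SE 0.24, edgeR, adjusted p = 0.0139), beside 0.34 for *Fcgrt*. The vesicle gene *Vamp8* rose by 0.65 (SE 0.16), and *Rab11a* (-0.27, SE 0.10) and *Myo5b* (0.29, SE 0.20), which serve recycling endosomes, did not pass. Of these 4 genes, 1, 0, and 0 were called without AAV5-*Gfp* replicates 1, 2, and 3, and 1 without AAV5-*V1+V2* replicate 2. Of 10 genes of the TRIM21 pathway, 3 were called higher, beside 10.1% of all genes tested. They were the transcription factor genes *Irf8* (2.56, SE 0.39) and *Irf5* (1.31, SE 0.25) and the kinase gene *Ikbkb* (0.44, SE 0.11). *Sqstm1*, which encodes an autophagy receptor for ubiquitinated cargo, did not pass (-0.15, SE 0.09). The median of this list was -0.01, and 0.05 when scaled by total counts. That scaling also moved the median of all genes tested, from -0.0003 to 0.058. None of the 10 was called without any 1 AAV5-*Gfp* library. Without AAV5-*V1+V2* replicate 2, 2 of the 10 were called, beside 5.40% of all genes tested called higher.

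The promoter windows of *Fcgr1*, *Fcgr4*, and *Trim21* hold matches to the motifs shown above, and a list of interferon response genes was read beside them. Whether these matches had a part in the change of the receptor genes was not tested. Of 25, 17 were called higher and none lower, beside 10.1% of all genes tested called higher, with a median log2 fold change of 1.24. *Trim30a* rose by 1.66 (SE 0.31) and *Gbp3* by 1.75 (SE 0.33) on the log2 scale. *Stat2* and *Ifit2* were at 0.37 (SE 0.13) and 0.08 (SE 0.08) and did not pass. The count was 4 without AAV5-*V1+V2* replicate 2, where 5.40% of all genes tested were called higher, and 0 without any 1 AAV5-*Gfp* library.

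Across the 6 libraries, the log2 CPM of *Fcgr1*, *Fcgr2b*, *Fcgr3*, *Fcgr4*, *Fcer1g*, and *Trim21* correlated with each other at Pearson's r between 0.940 and 0.996, and that of *Fcgrt* with the others between 0.663 and 0.804. The 6 points share the split between the groups, so these are descriptions. The genes most like each were sought among 14732 whose average level was 1 log2 CPM or more. Those most like *Fcer1g* were *Tnfrsf1b*, which encodes a TNF receptor, *Birc3*, and *Il13ra1* (r between 0.9996 and 0.9997). Those most like *Fcgr1* were *Oas1b*, *Cish*, and *Bst2* (r between 0.997 and 0.998). *Tifab*, *Trit1*, and 4930469K13Rik came first for *Fcgr2b*, *Rnaset2b*, *Npc2*, and *Zkscan17* for *Fcgr3*, and *Pnpla7*, *Arntl*, and *Tle3* for *Fcgr4*. *Pgls*, *Foxc1*, and *Lrrc32* came first for *Fcgrt*, and Gm6472, *Lat2*, and *Srrt* for *Trim21*.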

How the data were processed

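RNA from microinjected DRGs was sequenced in 6 libraries (3 each with AAV5-*Gfp* and AAV5-*V1+V2*) after a stranded total RNA kit. The values deposited by the authors are raw counts of reads for each gene symbol, without normalization. The submitters' processing notes name GRCm38 and mm10. The aligner, counter, annotation, and use of strand are not given in the sources used here. In edgeR 4.0.16 (R 4.3.3), filterByExpr removed low counts, libraries were scaled by TMM, and the groups were compared by glmQLFit and glmQLFTest with no covariate, with Benjamini-Hochberg adjustment over 18593 genes. Each SE was derived from the coefficient and its F statistic. Log2 CPM used a prior count of 2. Ratios were compared by 2-sided exact permutation tests. The code was tested on simulated data. DESeq2 1.42.0 and limma-voom (limma 3.58.1) were alternatives, as were other normalizations, filters, and thresholds, a replicate block, and leaving out each library.

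Genes named were the 7 receptors, genes of the lists, and the 3 genes most correlated with each receptor. The plan was to give values for at most 5 genes per list (smallest adjusted p or, among those that did not pass, highest level). The antibody and other Fc receptor lists have more. *Syk*, *Fcer1a*, *Ms4a2*, and *Cd163* were taken outside that rule, after their values were seen, and *Ighe* was not tested. Members and lists were chosen with earlier results of these data known. The main fit did not pair libraries by replicate number, and the labels used here do not say whether libraries of the same number belong together. Within groups, chi-square per degree of freedom was between 8.27 and 48.9, and no pair was counted as 1 library. Depth limits apply most to *Fcgr4*, and SDs and SEs cover the spread between libraries. Protein sequences were not used here. Of the genes this rule takes, 1 is not reported here.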

Additional observations from a re-analysis of the deposited data

How the results depend on the processing

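The count of 6 called receptor genes was the same with RLE, upper quartile, and total count scaling, without a filter, with robust empirical Bayes, with DESeq2, and at an adjusted p under 0.1. It was 5 with at least 1 CPM in 3 libraries, where *Fcgr4* left the test and so has no value. It was 3 with limma-voom, where *Fcgr2b*, *Fcgr3*, and *Fcgr4* had adjusted p values of 0.0505, 0.0542, and 0.0549. Leaving out 1 library at a time gave counts between 0 and 6. The cause was not tested. Log2 fold changes kept their direction in all these fits, from 0.89 to 1.30 for *Fcgr1*, 1.27 to 2.13 for *Fcgr2b*, 1.10 to 1.90 for *Fcgr3*, 1.69 to 2.73 for *Fcgr4*, 1.56 to 2.42 for *Fcer1g*, 0.21 to 0.48 for *Fcgrt*, and 0.53 to 0.80 for *Trim21*. *Fcgrt* was called in none of them (adjusted p between 0.0521 and 0.242). With the replicate block the count was 6, and 2118 genes were higher and 1341 lower overall; neuron markers called lower went from 2 to 5 and neutrophil markers called higher from 2 to 4. Each gene's group mean was taken from its log2 CPM, and the remaining deviations were correlated between libraries of different groups across genes. Deviations of same-numbered libraries correlated at 0.036, 0.066, and 0.107, and 5 of 6 libraries correlated best with their own number. Summing *Fcgr2b* and *Fcgr3*, the coding transcript length, and the lists under other scalings and without each library were added after the data were seen.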
